A study of Homo sapiens with 5 samples.

Results

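The genes examined were the small nuclear RNA (snRNA) and small nucleolar RNA (snoRNA) genes, taken by biotype from the RefSeq annotation of GRCh38.p14, the assembly also named hg38. They numbered 1353 of the 59679 RefSeq genes on chromosomes 1 to 22, X and Y: 154 snRNA and 1199 snoRNA genes, 611 with a symbol and 742 predicted models with LOC names. A gene was counted in a peak list when at least 1 bp of a peak lay between 1 kb before and 1 kb after it. Genes within 2 kb of a protein-coding gene end (169) were kept apart from those farther away (1184), because a peak beside the former can belong to the coding gene. The lists came from CUT&Tag, in which an antibody directs a transposase to chromatin, on HepG2, a human liver cancer line. There was 1 library each for Flag-tagged wild type ENL, for Flag-tagged ENL with the Y78A substitution in its YEATS domain, and for acetylation (H3K9ac), β-hydroxybutyrylation (H3K9bhb) and crotonylation (H3K9cr) of lysine 9 of histone H3. The 2 ENL proteins were stably expressed, and the sources used here do not say whether the histone libraries came from the same cells. The study asked whether ENL, a subunit of transcription elongation complexes, lies on chromatin with H3K9bhb. With 1 library per group no comparison of libraries had a replicate check, so no p-value is given, and each interval is at the 95% level and reflects counting error alone.

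Small nuclear RNAs are the RNA parts of the spliceosome, and most of their genes are read by RNA polymerase II from compact promoters of their own, with the SNAPc factor at a proximal sequence element and the little elongation complex helping transcription. U6, U6atac and 7SK RNA are read by RNA polymerase III from promoters that share that element. Most human snoRNAs have no promoter of their own: they lie in introns of a host gene and are released from its spliced transcript. C/D box snoRNAs (SNORD) guide ribose methylation and H/ACA box snoRNAs (SNORA) guide pseudouridine formation, mainly on ribosomal RNA.

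Because an intronic snoRNA depends on its host's promoter, the promoters of the host genes are shown first. Of the 541 SNORA and SNORD genes 300 lay inside a coding gene, 200 inside a long noncoding RNA (lncRNA) gene and 41 inside neither. The hosts were 259 genes, of which 202 had an entry, 294 promoters in all, in the RefSeq promoter table used here. Its window runs from 250 bases before to 50 after a gene's start. No snRNA or snoRNA gene has an entry there, so no member's own promoter is printed. The lncRNA hosts SNHG5 (chr6:85678684-85678983, minus strand), SNHG12 (chr1:28581824-28582123, minus strand), ZFAS1 (chr20:49278392-49278691, plus strand), SNHG32 (chr6:31834666-31834965, plus strand) and DANCR (chr4:52712144-52712443, plus strand) all had a wild type ENL peak over this window. They were chosen after their values were seen, the first 4 for their start sequence and DANCR for having peaks in all 5 lists. Capitals mark TATAA and the pyrimidine run that begins with C at the annotated start, in 5′ to 3′ order.
SNHG5: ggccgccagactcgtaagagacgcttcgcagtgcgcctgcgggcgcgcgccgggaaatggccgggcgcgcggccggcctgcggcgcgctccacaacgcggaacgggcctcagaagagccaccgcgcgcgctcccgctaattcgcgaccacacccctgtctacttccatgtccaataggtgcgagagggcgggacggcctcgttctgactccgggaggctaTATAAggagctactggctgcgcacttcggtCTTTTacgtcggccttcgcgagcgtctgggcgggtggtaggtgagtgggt
SNHG12: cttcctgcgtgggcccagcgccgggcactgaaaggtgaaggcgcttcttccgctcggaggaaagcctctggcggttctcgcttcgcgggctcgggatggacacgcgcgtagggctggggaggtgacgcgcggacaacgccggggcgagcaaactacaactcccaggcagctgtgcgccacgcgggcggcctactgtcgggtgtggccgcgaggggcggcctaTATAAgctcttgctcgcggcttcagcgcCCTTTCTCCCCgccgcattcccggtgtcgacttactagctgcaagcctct
ZFAS1: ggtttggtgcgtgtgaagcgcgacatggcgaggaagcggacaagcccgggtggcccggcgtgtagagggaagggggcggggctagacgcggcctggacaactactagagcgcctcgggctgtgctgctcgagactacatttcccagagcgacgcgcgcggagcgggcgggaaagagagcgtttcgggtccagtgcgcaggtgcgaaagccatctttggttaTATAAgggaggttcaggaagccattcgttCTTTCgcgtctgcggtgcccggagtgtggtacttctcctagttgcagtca
SNHG32: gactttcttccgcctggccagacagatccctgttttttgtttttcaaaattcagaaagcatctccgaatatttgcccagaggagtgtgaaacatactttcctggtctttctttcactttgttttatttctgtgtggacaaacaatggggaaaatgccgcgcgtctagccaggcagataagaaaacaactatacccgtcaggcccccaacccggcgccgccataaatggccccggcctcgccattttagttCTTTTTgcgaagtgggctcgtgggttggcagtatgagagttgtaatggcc
DANCR: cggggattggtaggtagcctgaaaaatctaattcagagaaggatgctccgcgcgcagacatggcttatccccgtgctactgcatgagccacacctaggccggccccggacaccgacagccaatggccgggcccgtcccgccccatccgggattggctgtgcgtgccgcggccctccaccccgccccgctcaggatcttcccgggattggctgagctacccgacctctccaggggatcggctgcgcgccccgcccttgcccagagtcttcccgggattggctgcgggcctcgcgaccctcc
SNHG5, SNHG12 and ZFAS1 had TATAA 30, 28 and 29 bases before the start and a start run of 5, 11 and 5 pyrimidines. SNHG32 had a run of 6 pyrimidines and no TATAA, and DANCR had neither. A start of C followed by at least 4 pyrimidines is known from messages of ribosomal proteins and from many snoRNA hosts.

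A wild type ENL peak lay over 131 of the 294 host promoters, 44.6% (39 to 50.3), beside 18.7% of all 35116 promoters. The 294 promoters belong to 202 genes, and promoters of 1 gene can meet the same peak, so these intervals can be too narrow. Y78A peaks covered 24.1% of host promoters, H3K9ac peaks 70.7%, H3K9bhb peaks 31.6% and H3K9cr peaks 4.76%, beside 9.51%, 37.8%, 15.2% and 2.53% of all promoters. Of the host promoters 251 belong to coding genes, which had wild type ENL at 45%, Y78A at 23.5%, H3K9ac at 72.9% and H3K9bhb at 33.1%, against 24.6%, 12.5%, 49.2% and 20.1% of all coding promoters. The other 43 belong to lncRNA genes and had wild type ENL at 41.9% (28.4 to 56.7), against 8.55% of all lncRNA promoters. For these 4 lists the share of promoters of the same gene type lay below the hosts' interval. For H3K9cr the intervals of coding hosts (2.76 to 8.17) and lncRNA hosts (1.28 to 15.5) included the 3.20% and 1.37% of their gene types. Promoters were not split by distance to a coding gene end. A peak over an lncRNA host's promoter can therefore belong to a coding neighbour. Of the SNORA and SNORD genes in lncRNA hosts, 13 of 25 near a coding gene end had wild type ENL, and 9 of 175 farther away. The pyrimidine start was present in 39 of 294 host promoters (13.3%), against 4.07% of all promoters. It was present in 26 of the 131 host promoters with a wild type ENL peak (19.8%) and in 13 of the 163 without (7.98%). Coding hosts had it in 20 of 113 with the peak (17.7%) and 12 of 138 without (8.70%), and lncRNA hosts in 6 of 18 and 1 of 25. TATAA on either strand anywhere in the window was present in 6 of these 18 and in 8 of the 25, against 27.1% of all lncRNA promoters. At 20 to 45 bases before the start it was present in 5 of the 18 and 2 of the 25, against 2.34% of all lncRNA promoters. Coding hosts had it there in 11 of 113 with the peak (9.73%) and 5 of 138 without (3.62%), against 4.90% of all coding promoters. The octamer ATGCAAAT was present in 1.02% of host promoters and 1.77% of all, ACTACAA, the core of the ZNF143 site, in 3.74% and 2.77%, and the core of the proximal sequence element in 1.70% and 2.17%, on both strands. The octamer and the element were therefore about as rare in host promoters as elsewhere, and these letter matches are a description only.

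Among all 1353 genes, 96 had a wild type ENL peak within 1 kb, 7.10% (5.85 to 8.59), where 4.00% of the 8796 RefSeq genes no longer than the longest member (332 bp, members included) had one. Y78A peaks were beside 53 (3.92%, background 1.85%), H3K9ac peaks beside 149 (11%, background 8.30%), H3K9bhb peaks beside 52 (3.84%, background 2.85%) and H3K9cr peaks beside 14 (1.03%, background 0.659%). The background lay below the members' interval in both ENL lists and H3K9ac, just below it in H3K9bhb (2.94 to 5.01) and inside it in H3K9cr (0.617 to 1.73). Because the background includes the members, it lies nearer to their shares than the remaining short genes do. The lists held 11394, 5422, 31493, 9176 and 3852 peaks in that order, and the read totals behind them are not given, so the depth is unknown. With each list limited to its strongest 3852 peaks, the length of the H3K9cr list, wild type ENL was beside 44 (3.25%) and Y78A beside 45 (3.33%), so the excess of wild type over Y78A was not seen there. In any list there were 167 of the genes, and in all 5 lists 12. Near a coding gene end, 42 of 169 genes had a wild type peak (24.9%), and away from one 54 of 1184 had it (4.56%). The 2 kb margin separated close neighbours: SNORD131 lay 1999 bp from an end of MRPL23 and SNORD49B 2021 bp from one of LRRC75A, and both had peaks.

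**Figure D1:**
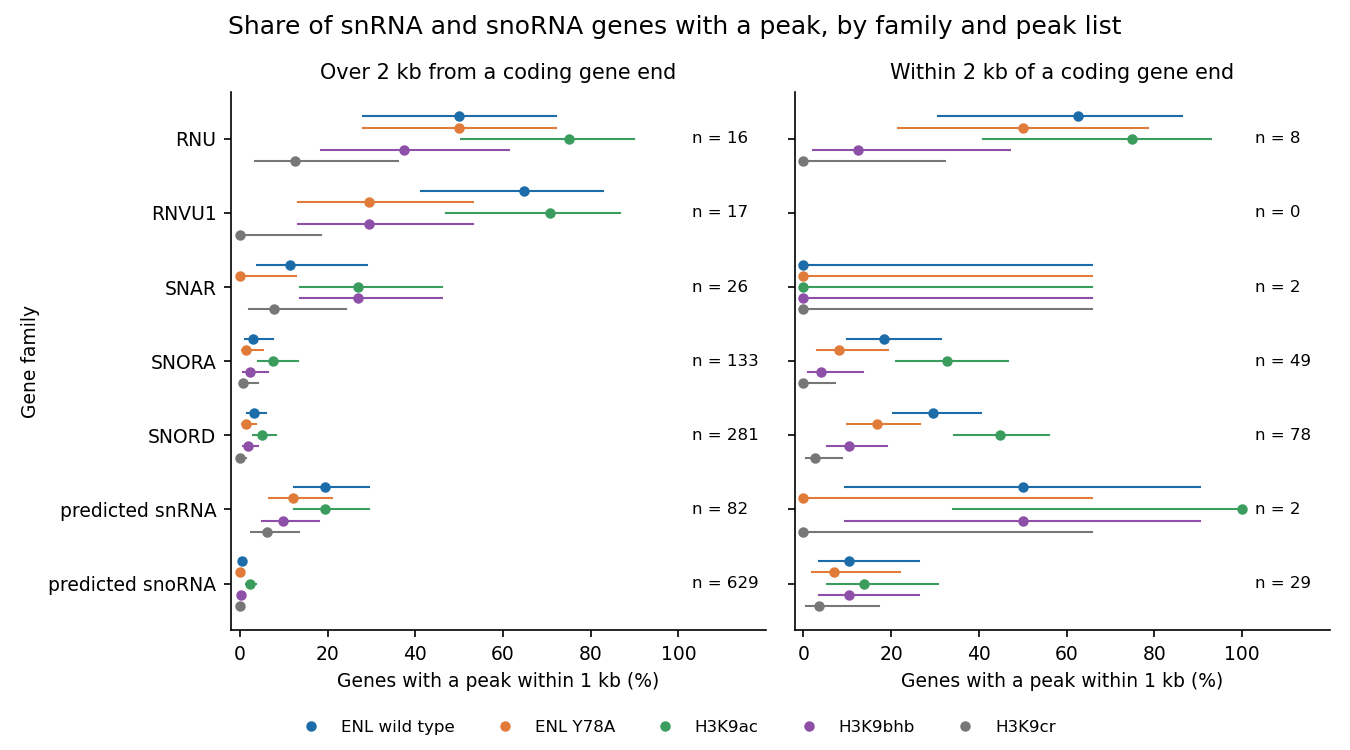
Share of genes with a peak within 1 kb (x axis, percent) for each family (y axis) and list (colour), over 2 kb from a coding gene end on the left and within 2 kb on the right. Points are shares and bars 95% Wilson intervals. RNU and RNVU1 genes stand at 50% and 64.7% for wild type ENL on the left, where SNORA and SNORD genes stand at 3.01% and 3.20%.

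The named snRNA genes were the members most often in the lists. Of the 42 RNU, RNVU1 and RN7SK genes, 25 had wild type ENL (59.5%) and 18 had Y78A (42.9%), while H3K9ac was at 31 (73.8%), H3K9bhb at 13 (31.0%) and H3K9cr at 3 (7.14%). With lists of equal length wild type ENL was at 8 (19.0%) and Y78A at 11 (26.2%), so their order turned, while all 5 shares stayed above those of short genes (0.659% to 1.5%). Away from coding gene ends 19 of 33 had wild type ENL (57.6%), against 13 of 414 SNORA and SNORD genes (3.14%), a difference of 54.4 points (37.5 to 69.7). The same difference was 37.9 points for Y78A, 66.9 for H3K9ac, 31.4 for H3K9bhb and 5.82 for H3K9cr, and none of these intervals reached 0. Pseudogene copies of these genes were rarely in a list: of 2010 snRNA pseudogenes away from coding gene ends 10 had wild type ENL (0.498%) and 31 had H3K9ac (1.54%). Transfer RNA genes are also short but are read by polymerase III, where 35 of the 42 named snRNA genes are read by polymerase II. They had wild type ENL at 42 of 368 (11.4%) and H3K9ac at 123 (33.4%). The named snRNA genes stood 46.2 points (29.0 to 61.6) and 39.3 points (21.6 to 52.4) above transfer RNA genes. Where wild type ENL was present the summit lay close to the snRNA gene, at a median of 105 bp and within 150 bp for 17 of 25. Only 3 of the 24 peaks covered a coding or lncRNA gene start listed in the promoter table, which lacks some genes.

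**Figure D2:**
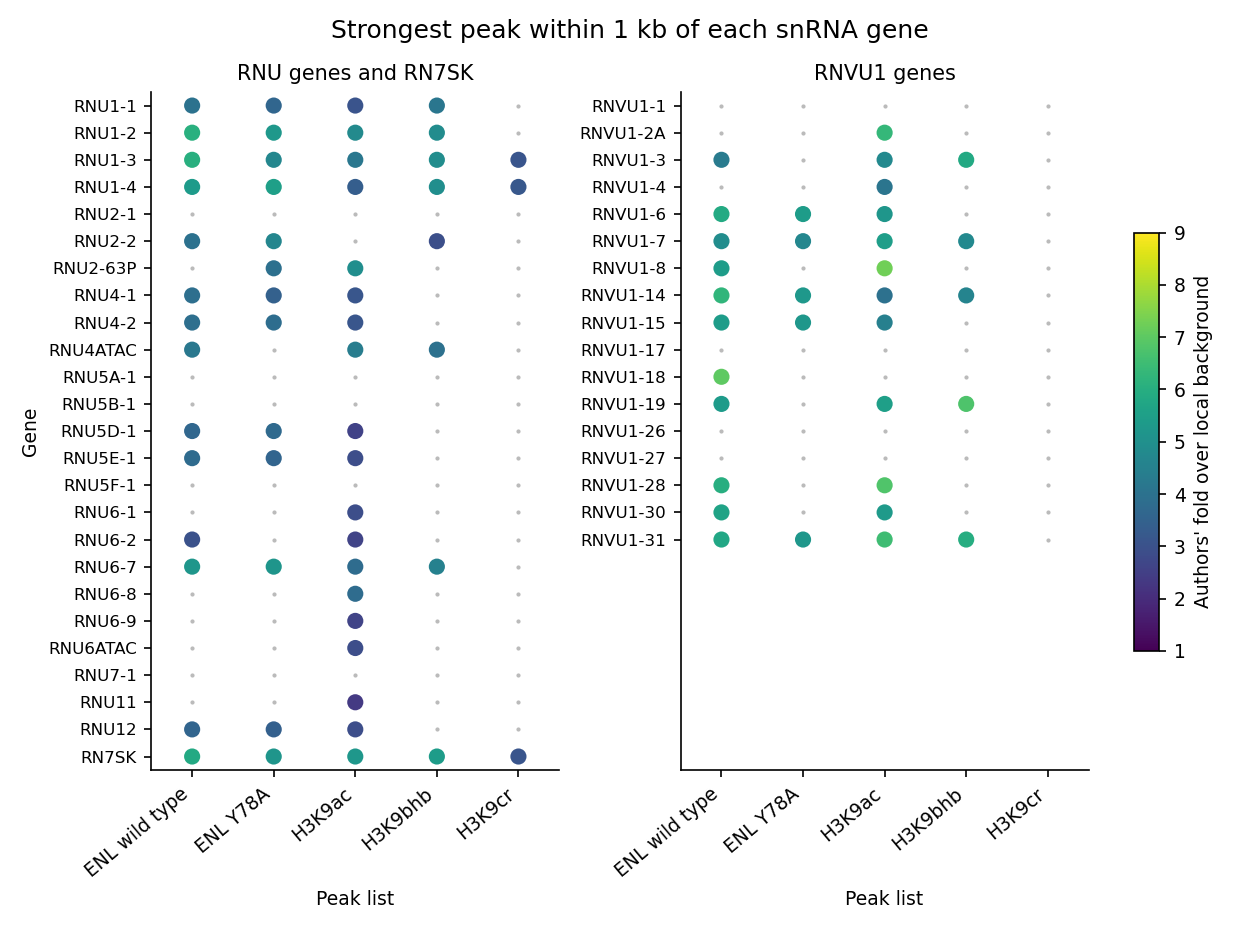
Strongest peak within 1 kb of each RNU gene, RN7SK and RNVU1 gene (y axis) in each list (x axis). Colour is the authors' fold over local background, used within a list only, and small grey dots mark no peak. The 4 RNU1 genes and RN7SK fill most columns, and 9 genes have none: RNU2-1, RNU5A-1, RNU5B-1, RNU5F-1, RNU7-1, RNVU1-1, RNVU1-17, RNVU1-26 and RNVU1-27.

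U1 RNA pairs with the start of introns, and all 4 RNU1 genes on chromosome 1 had wild type ENL, Y78A, H3K9ac and H3K9bhb. The authors' fold, the ratio of summit signal to local background, was 4.00 at RNU1-1, 6.08 at RNU1-2, 6.04 at RNU1-3 and 5.36 at RNU1-4 in wild type ENL. In Y78A it was 3.60, 5.28, 4.70 and 5.48, and in H3K9bhb 4.15, 4.86, 4.88 and 4.92, in the same order. H3K9cr was limited to RNU1-3 (3.11) and RNU1-4 (3.16), at chr1:16666785-16666948 and chr1:16740516-16740679. Folds are comparable only within a list, and the median fold over all peaks was 5.0 in wild type ENL and 5.24 in Y78A, so RNU1-2, RNU1-3 and RNU1-4 were above the wild type median and RNU1-1 below it, and RNU1-2 and RNU1-4 were above the Y78A median. The wild type summit lay 64 bp from RNU1-1 and RNU1-3, 75 bp from RNU1-4 and 326 bp from RNU1-2. The summit signal and the background can be recovered as fragment numbers from the fold and the p-value, and the wild type summits held 36, 43, 55 and 51 fragments at RNU1-1, RNU1-2, RNU1-3 and RNU1-4, where the median over wild type peaks was 23.

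RNVU1 genes are variant U1 genes, most of them in the duplicated region beside the centromere of chromosome 1. Of 17, all away from coding gene ends, 11 had wild type ENL, 5 had Y78A, 12 had H3K9ac, 5 had H3K9bhb and 0 had H3K9cr, which allows a share of up to 17.6%. RNVU1-18 had the highest wild type fold of all named snRNA genes, 7.03 on 17 fragments, with the summit inside the gene and no peak in another list. RNVU1-28 (6.01) and RNVU1-6 (5.86) followed among those without all 4 lists. RNVU1-14 (6.22), RNVU1-31 (5.77) and RNVU1-7 (4.88) had wild type ENL, Y78A, H3K9ac and H3K9bhb, while RNVU1-15 and RNVU1-6 had the first 3. Wild type ENL without Y78A was seen at 6 of the 11: RNVU1-18, RNVU1-19, RNVU1-28, RNVU1-8, RNVU1-3 and RNVU1-30. Their wild type summits held 13 to 21 fragments, and those of the 5 genes with Y78A held 18 to 32. The Y78A list held 5422 peaks and the wild type list 11394, so the part of list depth in these absences was not tested. H3K9ac alone was found at RNVU1-4 (4.11) and RNVU1-2A (6.34), and RNVU1-1, RNVU1-17, RNVU1-26 and RNVU1-27 had no peak. RNU1, RNVU1 and RNU2 genes have near-identical copies, how reads that match several copies were placed is not given, and any one copy's value is uncertain for that reason. Without these 3 groups wild type ENL was at 9 of 18 named snRNA genes (50%), Y78A at 7, H3K9ac at 14, H3K9bhb at 3 (16.7%, against 41.7% of the 24 copied genes) and H3K9cr at 1.

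U2 RNA pairs with the branch point of introns. RNU2-1 (chr17:43233790-43233977) had no peak in any list. RNU2-2, inside WDR74, had wild type ENL (3.98), Y78A (4.68) and H3K9bhb (2.92) with no H3K9ac peak, and RNU2-63P had Y78A (3.92) and H3K9ac (4.91) with no wild type ENL. RNU2-2 was the 1 named snRNA gene with wild type ENL and another mark but no H3K9ac. RNU2-1 opens a row of 12 predicted snRNA genes on chromosome 17 that reaches 66251 bp beyond it. All 12 had wild type ENL and 7 had Y78A, with H3K9ac at 10, H3K9bhb at 5 and H3K9cr at 5. These genes are 191 or 192 bp long, and several lie 6131 to 6161 bp after the gene before, as repeated copies would. Their sequences were not compared here, and how reads that match several places were placed is not given. The value of any single gene of the row is therefore uncertain. LOC124904138, the fourth of the predicted genes and 18039 bp from RNU2-1, had the highest wild type fold (6.06, 130 fragments) and Y78A fold (5.91, 99 fragments), with summits 81 and 47 bp from the gene. The local background under the wild type peaks of the row was 16.3 to 30.0 fragments (median 21.8), against a median of 3.68 over wild type peaks and of 2.89 at RNVU1 genes. In the other 4 lists the background could be recovered only under the peaks given above. LOC124904137, LOC124904138, LOC124904139, LOC124904146 and LOC124904144 had peaks in all 5 lists. Among members away from coding gene ends, RNU1-3, RNU1-4 and SNORA26 completed that group of 8. At LOC124904139 the strongest peaks of both ENL proteins had summits inside the gene. They did not overlap the strongest H3K9ac, H3K9bhb and H3K9cr peaks, whose summits lay more than 1 kb from the gene.

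**Figure D3:**
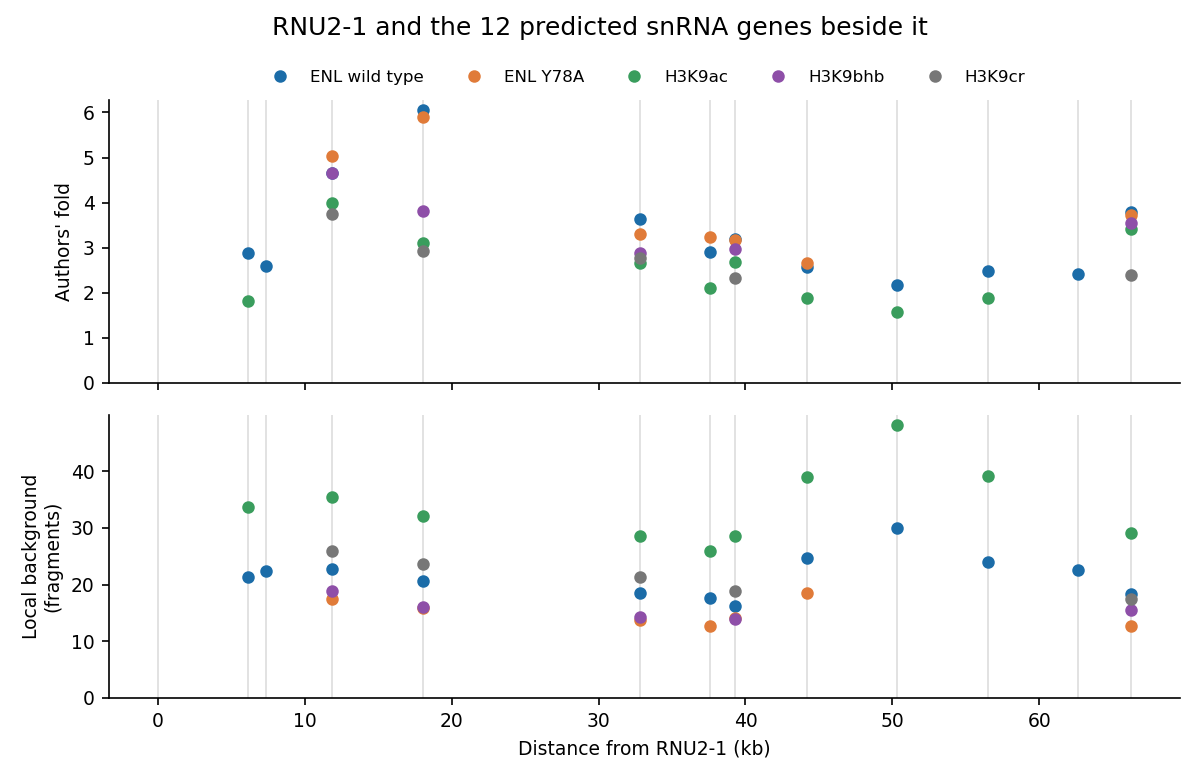
RNU2-1 and the predicted snRNA genes beside it, by distance from RNU2-1 (x axis, kb), with the authors' fold above and the recovered local background, in fragments, below. Grey lines mark genes and colours mark lists. Wild type folds run from 2.16 to 6.06 over backgrounds of 16.3 to 30.0 fragments.

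U4 RNA escorts U6 RNA into the spliceosome. RNU4-1 and RNU4-2, near SIRT4, shared 1 wild type peak (3.89) and 1 H3K9ac peak (3.13), with summits 372 and 186 bp from RNU4-2. The start of SIRT4, 286 bp from RNU4-2 and 904 bp from RNU4-1, lay inside both shared peaks, so these can belong to SIRT4. The strongest Y78A peak was 3.82 at RNU4-2, 14 bp from the gene, and 3.46 at RNU4-1. Neither had H3K9bhb. U5 RNA holds the exon ends: RNU5D-1 (wild type 3.63, Y78A 3.74, H3K9ac 2.58) and RNU5E-1 (3.76, 3.59 and 2.90) had both ENL proteins and H3K9ac, and RNU5A-1, RNU5B-1 and RNU5F-1 had no peak. The U5 genes thus fell into 2 with the same 3 lists and 3 with none, and 0 of 5 had H3K9bhb.

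The polymerase III genes had H3K9ac within 1 kb more often than ENL. All 7 (RN7SK, RNU6ATAC and 5 RNU6 genes) had H3K9ac, 3 had wild type ENL (42.9%, 15.8 to 75.0), 2 Y78A, 2 H3K9bhb and 1 H3K9cr. RN7SK, RNU6-2 and RNU6-9 lay within 2 kb of a coding gene end, so their peaks can belong to the coding gene. The H3K9ac summits lay more than 1 kb from RNU6-2 and RNU6-8. Of the 35 polymerase II genes 24 had H3K9ac (68.6%) and 22 wild type ENL (62.9%, 46.3 to 76.8), so the intervals of the wild type shares overlapped. RN7SK, whose RNA holds the elongation kinase P-TEFb in an inactive complex, had peaks in all 5 lists, with folds of 5.83 for wild type ENL and 5.16 for Y78A, and of 5.22, 5.38 and 3.10 for H3K9ac, H3K9bhb and H3K9cr. Its Y78A summit lay inside the gene and the wild type summit 352 bp from it, on a window shared with the start of GSTA4, 336 bp away. RNU6-7 (wild type 5.19, Y78A 5.16, H3K9ac 3.80, H3K9bhb 4.48) was the RNU6 gene in most lists, with its wild type summit 526 bp away. RNU6-2 had wild type ENL at 3.0, 142 bp away, and H3K9ac. RNU6-1 (2.88), RNU6-8 (3.80), RNU6-9 (2.62) and RNU6ATAC (2.89) had H3K9ac alone, and RNU6-8 shared its peak with RNU6-7.

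The minor spliceosome removes a rare class of introns with U11, U12, U4atac and U6atac RNA. All 4 genes had H3K9ac and 2 had wild type ENL: RNU12 (3.57, with Y78A at 3.42) and RNU4ATAC (4.19). RNU12 lay 361 bp from the start of POLDIP3. The wild type summit was 431 bp from RNU12, and the Y78A summit was inside the gene. RNU12 and RNU11 lay within 2 kb of a coding gene end, so their peaks can belong to the coding gene. RNU4ATAC lay inside the lncRNA CLASP1-AS1 and 118453 bp from the nearest listed coding or lncRNA gene start. It had the wild type summit inside the gene, H3K9ac at 4.37, H3K9bhb at 3.95 and no Y78A. RNU11 had H3K9ac alone (2.37). RNU7-1, whose RNA directs 3′ processing of histone messages, had no peak, although the start of C12orf57 lies 144 bp from it. In all, 9 of the 42 named snRNA genes had no peak and 7 had H3K9ac alone, and the commonest pattern with ENL was wild type, Y78A and H3K9ac together (7 genes).

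Other snRNA members differed from the spliceosomal genes. SNAR genes, a primate family of small RNAs in repeated arrays on chromosome 19, had H3K9bhb at 7 of 28 (25%, 12.7 to 43.4), as many as H3K9ac (7), with wild type ENL at 3, H3K9cr at 2 and Y78A at 0, which allows up to 10.7%. SNAR-A2 (wild type 4.05, H3K9bhb 4.29) and SNAR-C3 (4.33 and 3.37) had both, and SNAR-A12, SNAR-C5, SNAR-A1, SNAR-A10 and SNAR-B1 had H3K9bhb with no ENL. SNAR-A12 also had H3K9cr (2.67). These arrays are near-identical as well. Of the 84 predicted snRNA genes 17 had wild type ENL, 12 of them in the row beside RNU2-1. LOC124905574 (6.93), LOC124904634 (6.16) and LOC124904613 (6.15), all on chromosome 1, were the highest outside that row, and 2 of the 3 also had Y78A.

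SNORA and SNORD genes had peaks mainly where a host or neighbour starts. Wild type ENL was beside 45 of 541 (8.32%), Y78A beside 23, H3K9ac beside 75, H3K9bhb beside 18 and H3K9cr beside 3. Within 1 kb of a coding or lncRNA gene start 22 of 32 had wild type ENL (68.8%, 51.4 to 82.0), and between 1 and 2 kb 10 of 41 had it (24.4%). Beyond that the shares were 2 of 97 up to 5000 bp, 7 of 166 up to 20000 bp and 2 of 189 farther out (1.06%), so most genes with wild type ENL lay within 2 kb of a start. In the first 2 classes the shares were 46.9% and 4.88% for Y78A, 31.2% and 2.44% for H3K9bhb, and 75.0% and 51.2% for H3K9ac. The first class had H3K9ac and wild type ENL at like shares, while the second had H3K9ac at 21 of 41 genes and H3K9bhb at 1. The 16 SNORA and SNORD genes on chromosome 8 were left out of this count because starts on that chromosome were not used here. The wild type summit lay a median of 699 bp from the snoRNA gene, within 150 bp for 7 of 45. Of the 37 strongest peaks 22 covered a listed gene start.

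**Figure D4:**
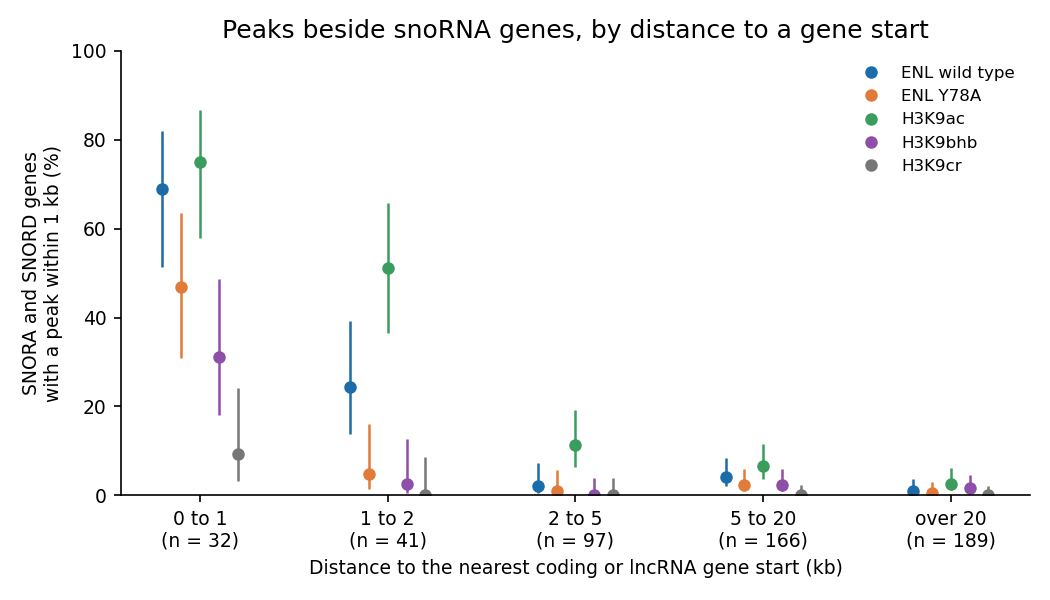
Share of SNORA and SNORD genes with a peak within 1 kb (y axis, percent) by distance to the nearest listed coding or lncRNA gene start (x axis, kb). Colours mark lists and bars are 95% Wilson intervals. Some genes have no listed start. Wild type ENL stands at 68.8% of 32 genes in the first class, 24.4% of 41 in the second and 1.06% of 189 in the last.

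**Figure D5:**
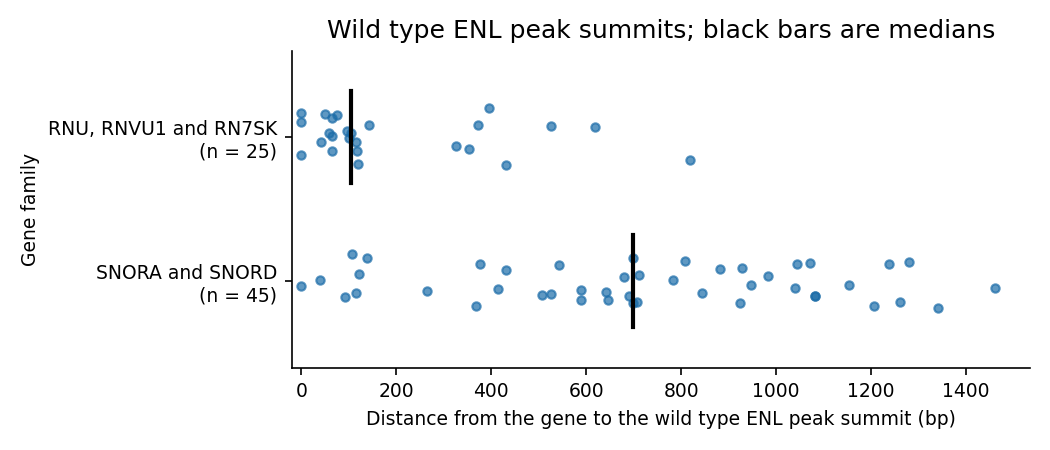
Distance from each gene to the summit of its strongest wild type ENL peak (x axis, bp) for 25 named snRNA genes and 45 SNORA and SNORD genes (y axis). Points are genes and black bars are medians, at 105 bp and 699 bp.

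SnoRNAs with promoters of their own include U3 (SNORD3), which starts the cutting of the ribosomal RNA precursor, U8 (SNORD118) and U13 (SNORD13). SNORD3A (chr17:19188016-19188232) lay 25392 bp from the nearest listed coding or lncRNA gene start. It had wild type ENL at 7.08 on 61 fragments, Y78A at 8.44 on 51 fragments, H3K9ac at 3.62 and H3K9bhb at 4.60. All 4 summits lay inside the gene, and no other SNORA or SNORD gene held the summit of its strongest wild type ENL, Y78A or H3K9bhb peak. SNORD3B-1 had 4.94, 6.55, 3.42 and 5.04 in the same 4 lists, with the wild type summit 137 bp away, and SNORD3B-2 had wild type ENL alone (4.04, 115 bp away). SNORD3D had H3K9ac (3.30), SNORD3C and the other SNORD3 members had no peak, and these copies also resemble each other. SNORD118, inside TMEM107, had no peak, and SNORD13 had wild type ENL (5.04, 121 bp away) and H3K9ac (3.28), near TTI2.

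The snoRNA genes of lncRNA hosts had wild type ENL at 22 of 200 (11%) and those of coding hosts at 18 of 300 (6.0%). Away from coding gene ends the counts were 9 of 175 and 1 of 204, so nearly all peaks at coding-hosted genes lay near a coding gene end. SNORA26 (chr4:52713249-52713370), an H/ACA gene of DANCR 855 bp from its start, was the 1 SNORA or SNORD gene away from coding gene ends with peaks in all 5 lists, with folds of 6.24 for wild type ENL and 5.50 for Y78A, and of 4.20, 4.70 and 4.71 for H3K9ac, H3K9bhb and H3K9cr. The wild type summit was 928 bp from SNORA26 and 73 bp before the annotated start of DANCR, and the peaks of wild type ENL and of the 3 marks covered that start. The Y78A peak lay between the start and SNORA26, with its summit 469 bp from the gene, and another Y78A peak (4.95) covered the DANCR promoter window printed above. SNORD50B had wild type ENL (6.59), Y78A (5.39) and H3K9ac (4.00) through the start of SNHG5, where the wild type summit lay 3 bp after the annotated start. SNORA16A had the same 3 lists (3.94, 4.36 and 2.77) through SNHG12, with the wild type summit 38 bp after its start.

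Further genes of lncRNA hosts had different sets of lists. SNORD12C in ZFAS1 had wild type ENL at 4.56, Y78A at 5.49, H3K9ac at 2.27 and H3K9bhb at 5.81. Its wild type summit, 286 bp before the ZFAS1 start, held 137 fragments, the most at any SNORA or SNORD gene. SNORD12C lay within 2 kb of a coding gene end, so these peaks can belong to a coding gene. SNORD12B and SNORD12, farther into ZFAS1, had a second, lower wild type peak (2.04) alone. SNORD48 in SNHG32 had wild type ENL (4.58) and H3K9ac (3.28), with no Y78A. SNORD49B in SNHG29 had 4 lists (wild type 4.58, Y78A 5.85, H3K9ac 2.62, H3K9bhb 4.16). SNORD1C in SNHG16 had wild type ENL (4.82), H3K9ac (3.02) and H3K9bhb (4.55), and SNORA13 in EPB41L4A-AS1 the same 3 (4.77, 5.03 and 6.16). These genes were named for their wild type ENL or for lists that differ, and Y78A and H3K9bhb were present at some and not at others. SNORA116, inside the coding gene TULP4 and 154632 bp from the nearest start in the table, had wild type ENL at 5.65 on 13 fragments, 39 bp from the gene, with H3K9bhb (4.69) and no H3K9ac.

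Near coding gene ends the highest wild type folds were at SNORD45C in RABGGTB (8.37), SNORD59A in ATP5F1B (8.20), SNORD84 in DDX39B (7.79), SNORA14B near TOMM20 (7.16), SNORD74 in GAS5 (6.96) and SNORD101 in RPS12 (6.85). SNORD45C also had Y78A (5.97), H3K9ac (4.01), H3K9bhb (5.45) and H3K9cr (4.54), and SNORD74 also had all 5 lists, with 5.94, 3.30, 6.24 and 3.39. SNORD59A, SNORA14B and SNORD101 had 4 lists and lacked H3K9cr, while SNORD84 had wild type ENL and H3K9ac alone. The summits lay 431 to 1081 bp from these 6 genes. Among H/ACA genes SNORA24 in SNHG8 (6.66), SNORA84 in IARS1 (6.21), SNORA57 in CSKMT (4.75) and SNORA50C near TEX2 (3.53) came after SNORA14B. SNORD95, SNORD60 and SNORD42B had both ENL proteins and no H3K9ac. SNORD95 in RACK1 had H3K9bhb as well (3.32). Of the 45 SNORA and SNORD genes with wild type ENL, 9 had no H3K9ac.

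Some members lie in dense clusters. The 40 SNORD113 and SNORD114 genes on chromosome 14 and the 78 SNORD115 and SNORD116 genes on chromosome 15, both imprinted arrays, had no peak in any list, which allows shares of up to 7.50% and 3.85%. Both limits include the 3.20% of SNORD genes away from coding gene ends that had wild type ENL. That share was not computed without these arrays, and the limits treat neighbours in 1 array as separate genes. The comparison therefore does not decide whether the arrays differ from other SNORD genes. GAS5 holds a run of 11 snoRNA genes, of which 3 had wild type ENL, 4 H3K9ac and 1 each of the others. Those were the genes nearest the start of ZBTB37: SNORD74, SNORD75 and SNORD76 took the same wild type peak. SNHG1 holds a run of 9, of which SNORD25, SNORD26 and SNORD27 had 1 shared peak in wild type ENL (4.55), Y78A (5.27) and H3K9ac (2.50). TAF1D holds a run of 8, with wild type ENL at SNORA25 (3.37) and H3K9ac at SNORA40 (2.77). In all 3 runs the genes with wild type ENL lay toward 1 end of the run.

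Some members named for their roles had little or nothing. SNORA73A and SNORA73B in SNHG3 had no peak within 1 kb, although the SNHG3 promoter window had wild type ENL (3.60), Y78A (4.12), H3K9ac (2.29) and H3K9bhb (3.34). Of SNORD14A to SNORD14E only SNORD14B had a peak (H3K9ac, 3.85), and of the SNORD15 pair only SNORD15A (H3K9ac, 2.55). Among the 658 predicted snoRNA genes 6 had wild type ENL (0.912%), led by LOC124900430 near FBXL12 (8.31, all 5 lists), LOC124900339 near SAP18 (5.96) and LOC124904795 near DNAAF3 (4.90). Away from coding gene ends they were LOC124906177 (4.62), LOC124900291 (4.36) and LOC124901211 (3.90), all without Y78A. SNORD147 in PLEKHA7 was the 1 SNORA or SNORD gene away from coding gene ends with H3K9bhb (4.60) and no wild type ENL. Small Cajal body RNAs (scaRNA) guide modification of snRNAs. Their 29 RefSeq genes have the biotype ncRNA and were counted apart: 3 had wild type ENL (SCARNA13 at 8.15, SCARNA16 at 4.76 and SCARNA17 at 4.37, all near a coding gene end), 5 had H3K9ac, 2 H3K9bhb and 0 Y78A or H3K9cr. SCARNA2, which has a promoter of its own, had H3K9bhb (4.89, summit inside the gene) and H3K9ac (4.45) with no ENL.

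The lists were then compared at the members with wild type ENL. Of the 96, 81 had H3K9ac (84.4%, 75.8 to 90.3), beside 86.4% of the 352 short genes with wild type ENL, which include the 96 themselves. H3K9bhb was present at 46 (47.9%, 38.2 to 57.8), where short genes had 60.5%, and H3K9cr at 13 (13.5%), where they had 12.5%. Y78A was present at 52 (54.2%, 44.2 to 63.8), where they had 45.7%. With lists of equal length 44 members had wild type ENL, and Y78A was at 81.8% of them and H3K9ac at 31.8%, the reverse of their order in the full lists. The H3K9bhb share over all 96 was below that of short genes, and for the other 3 lists the share of short genes was within the interval. Because the members are among the short genes, a share inside the interval does not show that members and the remaining short genes were alike. Away from coding gene ends H3K9bhb was at 30 of 54 (55.6%, 42.4 to 68.0), an interval that includes the 60.5% of short genes, and near them at 16 of 42 (38.1%, 25 to 53.2). Of protein-coding genes whose ends carried wild type ENL, 71.3% had H3K9bhb, and the difference of the members from them was -23.4 points (-33.2 to -13.5), with windows of different length. By group, H3K9bhb was at 13 of 25 named snRNA genes and at 17 of 45 SNORA and SNORD genes (37.8%, 25.1 to 52.4). Y78A was at 17 of the 25 (68.0%, 48.4 to 82.8) and at 23 of the 45 (51.1%, 37.0 to 65.0), and these intervals overlapped. Members with wild type ENL and none of the other 4 lists numbered 8, and 40 had H3K9ac without H3K9bhb. The 96 members lay at 82 loci, and the 45 SNORA and SNORD genes among them at 34. Neighbours that met the same peak were counted as separate genes, so the intervals of these shares and differences can be too narrow.

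The coding genes for proteins that make or assemble these RNAs were in the lists more often than coding genes at large. Of 46 listed genes 30 had wild type ENL within 1 kb of a gene end, 16 Y78A, 44 H3K9ac, 24 H3K9bhb and 6 H3K9cr, where all 20037 protein-coding genes had 28.6%, 14.6%, 56.4%, 23.8% and 4.49%. All 4 little elongation complex genes had wild type ENL: ICE1 (9.17), ELL (6.17), ICE2 (5.67) and ZC3H8 (4.77). Of 14 Integrator genes, whose complex cleaves nascent snRNA, 10 had it, up to 9.51 at INTS9 and 9.45 at INTS13. SNAPC1 (5.56), SNAPC5 (5.48) and SNAPC2 (3.38) had it among 5 SNAPc genes, and POU2F1 (8.01) and ZNF143 (7.91), activators of snRNA promoters, both had it with Y78A and H3K9bhb. Of the 6 H/ACA protein genes DKC1 (8.11) and NHP2 (4.46) had it. Of 12 hepatocyte genes 8 had H3K9ac at a gene end (66.7%), near the share of all coding genes, and ALB, AFP, TTR and SERPINA1 had none, so this count does not check the cell line. No peak of any list was at the 4 blood cell genes examined.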

How the data were processed

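CUT&Tag peak lists of 5 HepG2 libraries, 1 per group, were used, and sample titles gave the groups. Per the submitters' processing notes, MACS2, Bowtie2, FastQC, deepTools and the build hg38 were used, without versions. The sources used here do not give mapping filters, controls or duplicate handling. The deposited fold is a ratio of summit signal to local background, p and q were deposited as −log10 values, the deposited score is derived from q, and the authors' positions and summit offsets are in base pairs. Values were used as deposited, on the 24 standard chromosomes. The lowest −log10 q in the deposited lists was 2.05 for wild type ENL, 2.04 for Y78A, 2.02 for H3K9bhb, 1.34 for H3K9cr and 1.31 for H3K9ac, so thresholds differed between lists, and a longer list meets more genes.

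Genes came from RefSeq on GRCh38.p14, with 2 of 1355 snRNA and snoRNA genes left out as off these chromosomes. That table has no strand, so distances are unsigned. Starts and strands of coding and lncRNA genes came from the RefSeq promoter table, and starts on chromosome 8 were not used. Distances use its starts, which equal a gene end of the gene table for 70.9% of entries. Some coding and lncRNA genes have no entry there, so a distance to a start is to the nearest listed one. Overlap needed 1 bp. Intervals are Wilson for shares and Newcombe for differences, and a count of 0 was set against 3 counts. Summit fragments and background were solved from fold and −log10 p by a Poisson model with 1 added to both, within a relative tolerance of 0.0001, and this gave whole numbers for at least 99.95% of 2000 sampled peaks per list and for all members' peaks. Median fragments per summit were 23 for wild type ENL, 21 for Y78A and H3K9bhb, 22 for H3K9cr and 32 for H3K9ac.

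The members, the gene lists and the rule for named genes were chosen with earlier results of these data known. Named were every RNU gene, RN7SK and the snoRNA genes with known promoters or roles, the 5 highest wild type folds per family and distance class, members away from coding gene ends in all 5 lists or with discordant lists, and runs of at least 6 genes. The comparison planned with lncRNA and coding genes over the same window was replaced by genes of member length, because long genes meet more peaks, and the planned motif search in member promoters by one in host promoters. Overlaps, intervals and fragment recovery were tested on simulated data against known answers and bedtools 2.31.1. Python 3.11.15, pandas 2.3.3 and SciPy 1.17.1 were used.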

Additional observations from a re-analysis of the deposited data

How the results depend on the processing

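Of 187 counts and shares recomputed under an alternative, 134 stayed within 1.5 times the count, or inside the interval of the share, given above. All 24 did so at −log10 q of at least 3, all 20 with the summit inside the window, all 10 with overlapping windows merged and all 4 at the level of single peaks. No paired analysis was possible because each group has 1 library, and for the same reason no library could be left out. On the gene alone (0 bp) wild type ENL was at 41 of all members, Y78A at 26, H3K9ac at 58, H3K9bhb at 20 and H3K9cr at 4. Away from coding gene ends the changed counts were then 34 in wild type ENL, 39 in H3K9ac, 18 in H3K9bhb and 3 in H3K9cr, and SNORA and SNORD genes had 6, 2, 27, 3 and 0 in the order of the 5 lists. At 0.5 kb SNORA and SNORD genes with wild type ENL numbered 23, with Y78A 12, with H3K9bhb 10 and with H3K9cr 1. At 2 kb they had 76, 50, 126, 43 and 9, all members had 89 in Y78A, 86 in H3K9bhb and 25 in H3K9cr, and members away from coding gene ends had 129 in H3K9ac and 16 in H3K9cr. The named snRNA genes kept counts within 1.5 times at all 3 windows. At −log10 q of at least 5, H3K9cr was at 7 members, 6 of them away from coding gene ends.

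With each list limited to 3852 peaks, the number in the H3K9cr list, the counts over all members were 44 in wild type ENL, 31 in H3K9ac and 22 in H3K9bhb, and away from coding gene ends 20, 18 and 15. Y78A was then at 45 and 25 of these, above wild type ENL in both. Of the named snRNA genes 8 then had wild type ENL, 11 had Y78A, 12 had H3K9ac and 8 had H3K9bhb, so wild type ENL no longer exceeded Y78A, and SNORA and SNORD genes had 29, 12 and 7 in wild type ENL, H3K9ac and H3K9bhb. Of members with wild type ENL, 81.8% then had Y78A, 31.8% H3K9ac and 25% H3K9cr. These lists hold fewer peaks by construction. Counting lncRNA gene ends as well left 19 members with Y78A away from ends. Alternatives added after seeing the data gave 8 named members with H3K9cr and, without RNU1, RNVU1 and RNU2 genes, 9, 7, 14, 3 and 1 named snRNA genes in the order of the 5 lists. For 37 single members, the number of lists stayed the same in 195 of 259 recomputations.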
